A study of Mus musculus with 8 samples.

Results

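The 31 genes described here encode proteins that build the postsynaptic side of excitatory synapses or hold the pre- and postsynaptic membranes together. They were chosen by name: each is a row of the deposited count table whose gene symbol is exactly one of the 31, out of 25815 genes in the table. All 31 symbols were found and all 31 passed the filter on low counts. The libraries came from total brain of mice at postnatal day 50, 5 with the Cstf2 D50A allele and 3 from wild-type (WT) littermates, with no treatment. Both groups share the C57BL/6NCrl background after 4 backcross generations and later breeding within one colony, and poly(A)-selected RNA was sequenced. Cstf2 encodes a subunit of the cleavage stimulation factor that binds RNA near polyadenylation sites, and D50A puts alanine in place of aspartate in its RNA recognition motif. The allele is carried in the germ line, so no cell type is singled out by the model. The labels give no sex, litter or batch, and each library is named as its own animal.

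At an excitatory synapse the postsynaptic density is a layered scaffold. MAGUK proteins such as PSD-95 lie under the membrane and bind glutamate receptors, SAPAP proteins link them to SHANK proteins, and Homer proteins link SHANK to metabotropic glutamate receptors. CaMKII, the calcium- and calmodulin-dependent kinase of the density, phosphorylates receptors and scaffolds during plasticity. Across the cleft, presynaptic neurexins bind postsynaptic neuroligins and LRRTM proteins, among other partners. Presynaptic LAR-type receptor phosphatases bind several postsynaptic adhesion proteins, while SynCAM proteins, encoded by the Cadm genes, bind each other from both sides.

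Depth ran from 13675945 to 24802272 counts per library. D50A 3, the third mutant library, stood apart: mitochondrially encoded genes took 11.9% of its counts and 4.08% to 5.14% of the counts elsewhere. Neuronal, astrocyte, oligodendrocyte and microglial markers were detected in every library. A list of 12 genes of the cerebellum, among them Gabra6 and Cbln1, summed to 136 to 143 CPM (counts scaled to a common library size with TMM factors) in the WT libraries and to 143, 837, 926, 1165 and 1190 CPM in D50A 1 to 5. D50A 1 was therefore at the WT level and the other 4 mutant libraries were far above it. The 12 genes of forebrain excitatory neurons summed to 1984 to 2102 CPM in WT and to 1971, 1873, 926, 1740 and 1709 CPM in D50A 1 to 5, so every mutant library was under every WT library. In D50A 3 the oligodendrocyte list summed to 20854 CPM against 9444 to 10246 in WT, the striatal list to 1386 against 704 to 740.2 and the microglial list to 541 against 256 to 259.6. The general neuronal list summed to 5917 CPM in D50A 3 against 5807 to 6132 in WT, inside the WT range. The astrocyte list summed to 4452 CPM there against 4642 to 4791 in WT. The part of these lists in the members' low values in D50A 3 was not tested. Fewer cells of a type and less RNA per cell cannot be told apart in bulk RNA. Cstf2 itself had a log2 fold change (D50A minus WT) of -0.23 ± 0.22 (SE) over all 8 libraries, and of -0.09 ± 0.08 (SE) without D50A 3.

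No member was called, that is, had an adjusted p under 0.05, in edgeR's quasi-likelihood test with all 8 libraries, and none was called without D50A 3. The same held for all genes: 0% of 16810 genes tested were called with all 8 libraries and 0% of 16754 without D50A 3. With all 8 libraries the log2 fold change was negative for 28 members and positive for 3, with a median of -0.24, against -0.01 over all genes tested. Without D50A 3 it was negative for 26 and positive for 5, with a median of -0.10, against -0.00. At an unadjusted p under 0.05, 1 member (Homer3) was higher and 0 were lower with all 8 libraries, where 1.64% of all genes were higher and 0.863% were lower. Without D50A 3 the same threshold gave Homer3 as higher and 6 members as lower (Dlg2, Dlgap1, Dlgap2, Homer2, Lrrtm4 and Cadm1), beside 5.07% of all genes higher and 4.33% lower.

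**Figure D1:**
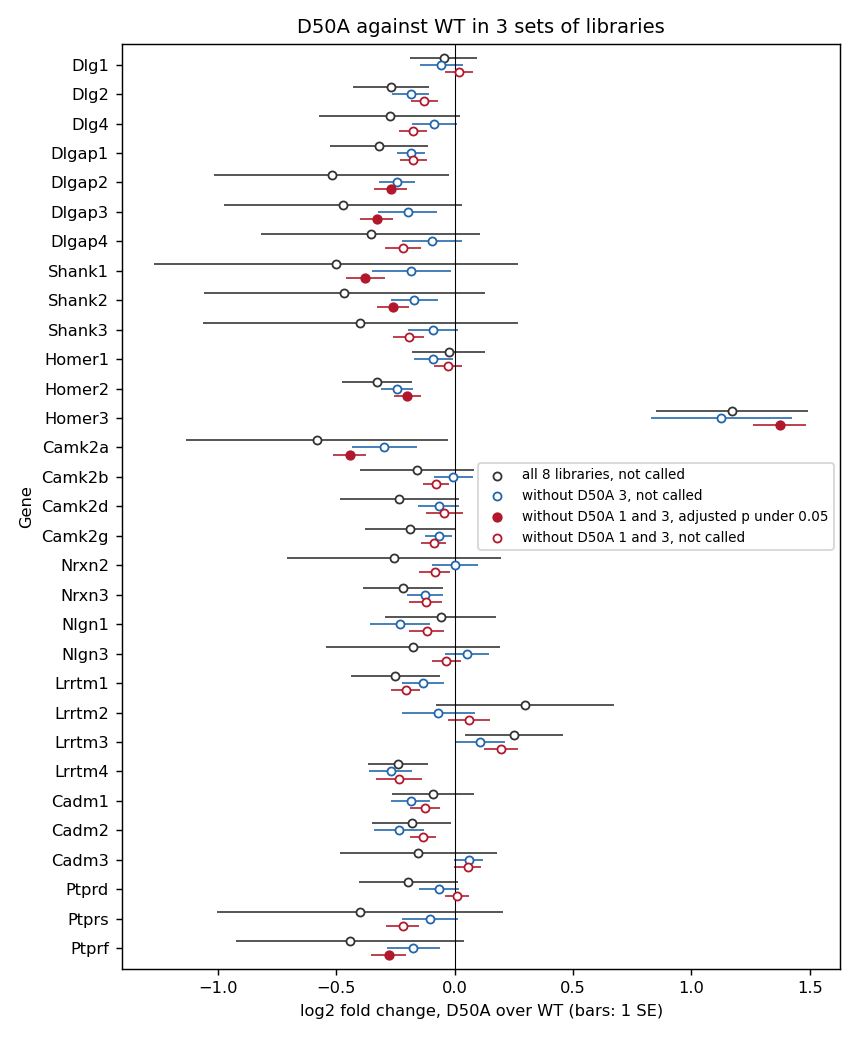
Log2 fold change of each member (D50A minus WT, horizontal axis) with all 8 libraries, without D50A 3 and without D50A 1 and 3; points are edgeR estimates and bars are ± 1 SE. Most points lie left of 0, Homer3 lies right of 1 in all 3 sets, and the bars shrink once D50A 3 is left out.

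The ranges of the groups were compared as well. In 4 members, Dlg2, Dlgap1, Dlgap2 and Homer2, every D50A library was below every WT library, while 4.24% of all genes tested did so. No member had all 5 D50A libraries above WT, and 3.22% of all genes did. Leaving out D50A 3 added Lrrtm4 and Cadm2 to the lower group, 6 members in all, beside 5.78% of all genes, and left 0 members higher, beside 4.8% of all genes.

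D50A 1 and D50A 3 were also left out together, since both had stood apart in earlier results of these data. D50A 1 had no raised mitochondrial share (4.08%) and differed from the other mutant libraries in its WT-like cerebellum list (143 CPM). Leaving it out was thus a choice made with values of these data known. P-values of fits without D50A 1, here and below, do not allow for that choice. In that comparison of D50A 2, 4 and 5 with WT, edgeR called 1 member higher, Homer3, and 7 lower: Dlgap2, Dlgap3, Shank1, Shank2, Homer2, Camk2a and Ptprf. Over all 16591 genes tested, 3.36% were called higher and 3.06% lower. The same 3 mutant libraries carry the high cerebellum list (837 to 1190 CPM against 136 to 143 in WT) and the lower forebrain list (1709 to 1873 against 1984 to 2102). In the same comparison edgeR called 12 of the 12 cerebellum genes higher and 4 of the 12 forebrain genes lower. Of the other lists it called 3 of 8 astrocyte genes higher and 1 lower, 1 of 8 oligodendrocyte genes higher, and 1 of 7 striatal, 1 of 8 microglial and 1 of 10 general neuronal genes lower. Genotype and tissue content cannot be told apart in these 3 mutant libraries. Limma-voom with sample quality weights, on all 8 libraries, called Homer3 higher and Homer2 and Camk2a lower, beside 1.87% of all genes higher and 1.2% lower. It called those 3 without D50A 3 as well, beside 1.84% of all genes higher and 1.19% lower. DESeq2 called no member, with 0.243% of 16475 genes called, and Homer3 had an adjusted p of 0.13 in it.

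**Figure D2:**
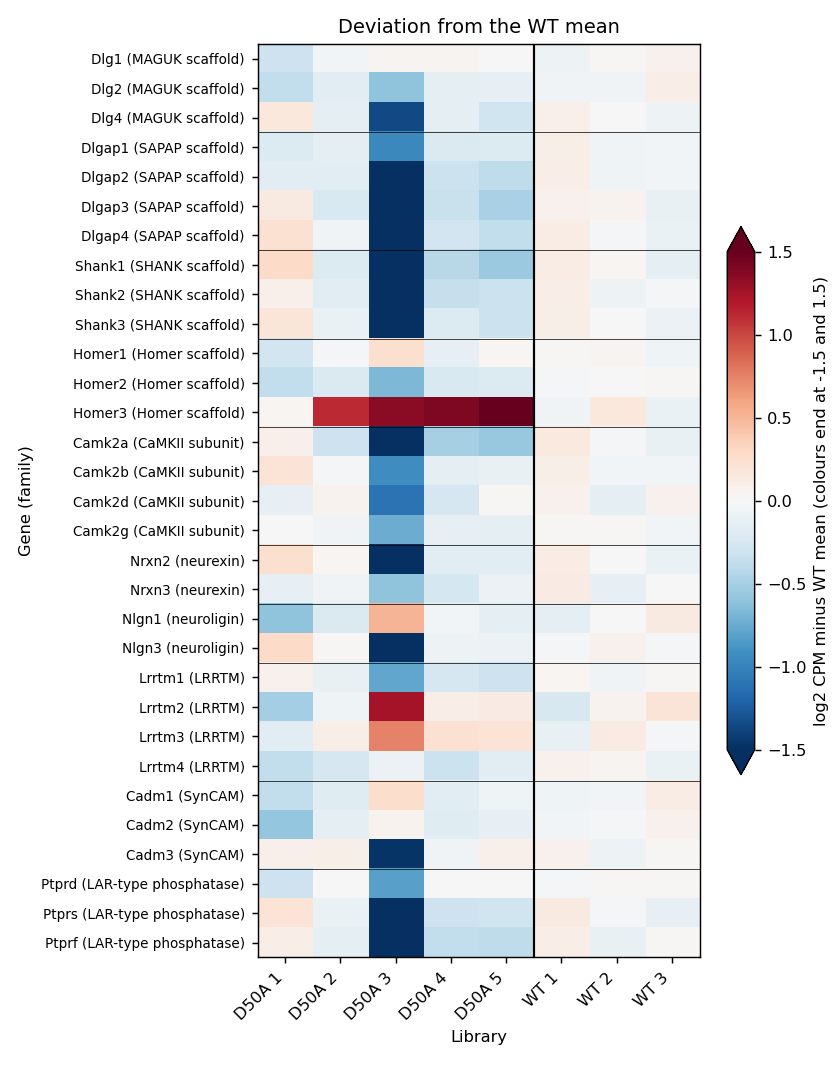
Log2 difference of each member's CPM from the WT mean in each of the 8 libraries (columns), with members (rows) grouped by role; blue is lower and red is higher. Colours end at 1.5 either way. The D50A 3 column holds the deepest blues, and Homer3 is red in D50A 2 to 5 and near 0 in D50A 1.

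The 3 Homer genes did not share one direction. Homer proteins are adaptors whose EVH1 domain binds SHANK and group I metabotropic glutamate receptors, and whose coiled coil joins them into larger assemblies. The windows around their RefSeq starts, from 250 bases before to 50 bases after the start, are shown because the 3 paralogs, Homer1, Homer2 and Homer3, had log2 fold changes of -0.03, -0.33 and 1.17 with all 8 libraries, none of them called. Each comes from RefSeq on GRCm38.p6, reads 5′ to 3′ on the gene's strand, and uses the outermost 5′ start where the table holds more than 1. Capitals mark CANNTG, the E-box letters, which read alike on both strands.
Homer1, chr13:93303507-93303806, plus strand: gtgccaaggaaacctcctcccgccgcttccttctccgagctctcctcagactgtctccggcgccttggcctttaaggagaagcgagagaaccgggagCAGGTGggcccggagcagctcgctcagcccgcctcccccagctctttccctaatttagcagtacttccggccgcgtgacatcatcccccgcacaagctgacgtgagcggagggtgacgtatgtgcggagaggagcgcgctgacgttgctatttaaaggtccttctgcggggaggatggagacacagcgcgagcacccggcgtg
Homer2, chr7:81706876-81707175, minus strand: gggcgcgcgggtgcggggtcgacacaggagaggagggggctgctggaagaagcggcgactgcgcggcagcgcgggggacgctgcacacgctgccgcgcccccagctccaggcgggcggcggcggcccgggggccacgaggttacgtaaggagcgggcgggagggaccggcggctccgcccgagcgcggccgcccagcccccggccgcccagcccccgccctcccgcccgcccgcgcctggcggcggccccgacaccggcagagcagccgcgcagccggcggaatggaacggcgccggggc
Homer3, chr8:70282749-70283048, plus strand: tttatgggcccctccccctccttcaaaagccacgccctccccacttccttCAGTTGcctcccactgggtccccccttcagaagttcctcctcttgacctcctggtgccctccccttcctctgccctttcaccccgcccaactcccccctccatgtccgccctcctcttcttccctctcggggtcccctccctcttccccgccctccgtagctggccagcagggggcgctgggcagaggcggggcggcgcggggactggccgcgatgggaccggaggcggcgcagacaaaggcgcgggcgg
GC content was 63.0%, 82.3% and 69.7% in these windows for Homer1, Homer2 and Homer3, against a median of 52.7% over 32851 windows of the same length. They held 26, 49 and 19 CG pairs, where the median window held 7. CANNTG occurred 1, 0 and 1 times and is present in 72.3% of all windows. GGGCGG, on either strand, occurred 0, 8 and 5 times and is present in 35.7% of all windows. These matches are letters in a window and carry no statement on any factor. A window was found for 21 of the 31 members.

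Homer3 (ENSMUSG00000003573, chr8:70282827-70294361 in mm10, plus strand), the Homer that is prominent in cerebellar Purkinje cells, had 10.4, 22.3, 26.2, 27.2 and 29.5 CPM in D50A 1 to 5. In WT 1 to 3 it had 9.86, 11.4 and 9.5 CPM. D50A 2 to 5 were all above WT, and D50A 1 lay inside the WT range, so the groups overlapped. Its log2 fold change was 1.17 ± 0.32 (SE) with all 8 libraries (edgeR, adjusted p = 0.84), 1.13 ± 0.30 (SE) without D50A 3 (adjusted p = 0.25) and 1.37 ± 0.11 (SE) without D50A 1 and 3 (adjusted p = 8.3e-07). Limma-voom gave 1.27 ± 0.18 (SE; adjusted p = 0.0025). Leaving out D50A 1 alone gave a log2 fold change of 1.38 and an adjusted p of 0.035 in edgeR, in a comparison where 0.156% of all genes were called higher. The 4 mutant libraries above WT are the 4 with the high cerebellum list. When the mean log2 level of that list was added to the fit as a covariate, without D50A 3, the genotype term for Homer3 was 0.02 ± 0.14 (SE; edgeR, adjusted p = 0.95). That term rests mainly on D50A 1, the sole mutant library with a WT-like list, where Homer3 lay inside the WT range. Genotype and tissue content therefore cannot be told apart by it.

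An overlapping gene bears on how Homer3 was counted. GENCODE M21 places 25.4% of Homer3's exon bases under exons of other genes, among them Ddx49 on the opposite strand. No source used here gives the strand setting of the counting. Without strand, reads from an overlap cannot be told apart. Ddx49, an RNA helicase gene looked up after Homer3's values were seen, had 20.7, 17.6, 22.9, 17.4 and 18.8 CPM in D50A 1 to 5 and 18.6, 18.9 and 16.5 CPM in WT. The log2 fold change of this gene was 0.12 ± 0.14 (SE; edgeR, adjusted p = 0.84) and its libraries overlapped.

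Homer2 (ENSMUSG00000025813, chr7:81600481-81707527, minus strand) had 97.1, 100.1 and 101 CPM in WT. D50A 1 to 5 had 76.6, 85.7, 62.4, 84.6 and 86.3 CPM, all below WT, including D50A 1. Without D50A 3 the means were 83.3 ± 4.51 CPM (SD, n = 4) and 99.4 ± 2.0 CPM (SD, n = 3), which puts D50A at 83.8% of WT. The log2 fold change was -0.33 ± 0.15 (SE) with all 8 libraries (edgeR, adjusted p = 0.84), -0.24 ± 0.07 (SE) without D50A 3 (adjusted p = 0.26) and -0.20 ± 0.06 (SE) without D50A 1 and 3 (adjusted p = 0.046). Limma-voom gave -0.23 ± 0.05 (SE; adjusted p = 0.042). Offsets for transcript GC and length gave 0.12 ± 0.25 (SE) in the 8-library fit and a negative estimate without D50A 3. With the cerebellum list as a covariate, without D50A 3, the estimate was -0.37 ± 0.08 (SE; edgeR, adjusted p = 0.0038). The covariate leaves that estimate resting mainly on D50A 1, the sole mutant library with a WT-like list.

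Homer1 (chr13:93299635-93405129, plus strand), whose short activity-induced form uncouples the longer Homers, had 114, 135, 163, 127 and 141 CPM in D50A 1 to 5 and 140.0, 143 and 132 CPM in WT. The groups overlapped, with D50A 1 lowest and D50A 3 highest. Gene counts do not separate its short and long forms. The log2 fold change was -0.03 ± 0.15 (SE; edgeR, adjusted p = 0.95), and it took the other sign under DESeq2 and under another scaling.

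Per kilobase of longest transcript, Homer3 made up 10.2%, 11.4% and 10.1% of the summed Homer level in WT 1 to 3. In D50A 1 to 5 its share was 13.0%, 21.3%, 22.7%, 25.9% and 25.8%. Every mutant library was above every WT library by this share, D50A 1 by the least. In D50A 1 the CPM of Homer3 itself lay inside the WT range, while Homer1 and Homer2 were below every WT library. Homer2's share went the other way, from 23.7% to 25.5% in WT against 22.6%, 19.5%, 12.8%, 19.1% and 17.9% in D50A 1 to 5. Shares add to 100 within a family, so a higher share of one member lowers the others, and lower levels of some members raise the shares of the rest.

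**Figure D3:**
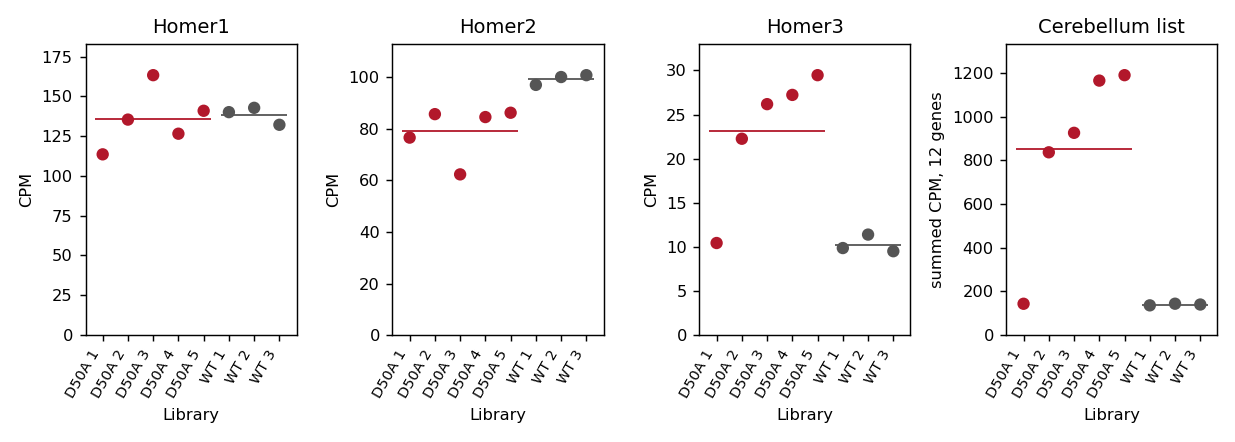
CPM of Homer1, Homer2 and Homer3 in each library, beside the summed CPM of the cerebellum list; points are libraries and lines are group means. Homer3 and the cerebellum list are high in D50A 2 to 5 and at the WT level in D50A 1, while Homer2 is under WT in all 5 mutant libraries.

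Among the MAGUK scaffolds, Dlg4 encodes PSD-95, the most abundant scaffold of the density, Dlg2 encodes PSD-93 and Dlg1 encodes SAP97. Dlg2 (chr7:90476672-92449247, plus strand) had 249.8, 287, 213, 292 and 296 CPM in D50A 1 to 5 and 310.4, 310.2 and 346 CPM in WT. All 5 mutant libraries were below WT. Its log2 fold change was -0.27 ± 0.16 (SE) with all 8 libraries (edgeR, adjusted p = 0.84) and -0.19 ± 0.08 (SE) without D50A 3 (adjusted p = 0.48). Dlg4 had 765, 626, 268, 621 and 555 CPM against 722, 683 and 652 CPM in WT, with D50A 1 above all WT libraries and the other 4 mutant libraries below. Dlg1 had 139, 167.5, 177, 177 and 173 CPM against 163, 174 and 179.6 CPM, and apart from D50A 1, which lay below, its mutant values fell inside the WT range. None of the 3 was called in any comparison without a covariate.

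The SAPAP scaffolds, which sit between PSD-95 and SHANK, all had negative log2 fold changes with and without D50A 3. Dlgap1 (chr17:69969073-70821413, plus strand) had 413, 432, 242, 407 and 413 CPM in D50A 1 to 5 and 507, 458 and 463 CPM in WT, with no overlap. Without D50A 3 it was at 87.5% of WT, with a log2 fold change of -0.18 ± 0.06 (SE; edgeR, adjusted p = 0.34). With all 8 libraries that of Dlgap1 was -0.32 ± 0.21 (SE), and -0.01 ± 0.14 (SE) with offsets for transcript GC and length. Dlgap2 (chr8:14095865-14847680, plus strand) had 57.3, 57.7, 8.42, 51.3 and 49.4 CPM against 68.7, 61.6 and 62.7 CPM. It too had every mutant library below WT, by little in D50A 1 and 2 and by 7.65-fold in D50A 3. The log2 fold change of this gene was -0.52 ± 0.50 (SE) with all 8 libraries (edgeR, adjusted p = 0.84), -0.24 ± 0.08 (SE) without D50A 3 (adjusted p = 0.32) and -0.27 ± 0.07 (SE) without D50A 1 and 3 (adjusted p = 0.026).

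Dlgap3, the SAPAP that is prominent in striatum, had 409.6, 318, 54.6, 296 and 266 CPM in D50A 1 to 5 and 389, 384 and 344 CPM in WT. D50A 1 was the highest of the 8 libraries and the other 4 were below WT. The log2 fold change was -0.20 ± 0.12 (SE) without D50A 3 (edgeR, adjusted p = 0.67) and -0.33 ± 0.07 (SE) without D50A 1 and 3 (adjusted p = 0.0096). Dlgap4 had 279, 230.4, 45.4, 196 and 185 CPM against 259, 236 and 224 CPM, with D50A 1 above WT and D50A 2 inside the WT range, and was not called in any of these comparisons.

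The SHANK genes encode the deep scaffold that joins SAPAP to Homer and to the actin cytoskeleton, and Shank1 was the member furthest below WT in D50A 3. Shank1 (chr7:44310253-44360572, plus strand) had 628, 448, 18.4, 387 and 349.9 CPM in D50A 1 to 5 and 559.8, 526 and 469 CPM in WT. D50A 1 was above WT, D50A 2, 4 and 5 were below, and D50A 3 was 28.1-fold below the WT mean. In D50A 3 Shank2 and Shank3 were 11.1-fold and 15.3-fold below the WT mean, at 19.4 and 18.1 CPM. Without D50A 1 and 3, Shank1 had a log2 fold change of -0.38 ± 0.08 (SE; edgeR, adjusted p = 0.011) and Shank2 of -0.26 ± 0.07 (SE; adjusted p = 0.027). Shank3 had -0.19 ± 0.07 (SE) and was not called (adjusted p = 0.097). Without D50A 3 alone, the 3 genes had log2 fold changes of -0.18, -0.17 and -0.09 with SEs of 0.17, 0.10 and 0.11, and edgeR called none.

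Camk2a (ENSMUSG00000024617, chr18:60925618-60988152, plus strand), the alpha subunit of CaMKII and a mark of forebrain excitatory neurons, had the highest level per kilobase of the 31 genes. It had 2580.5, 1965, 266, 1730.3 and 1649 CPM in D50A 1 to 5 and 2698, 2397 and 2253 CPM in WT. D50A 2 to 5 were below every WT library and D50A 1 lay among them. Without D50A 3 its means were 1981 ± 421 CPM (SD, n = 4) and 2449 ± 227 CPM (SD, n = 3), in that order. Its log2 fold change was -0.58 ± 0.55 (SE) with all 8 libraries (edgeR, adjusted p = 0.84), -0.30 ± 0.14 (SE) without D50A 3 (adjusted p = 0.54) and -0.44 ± 0.07 (SE) without D50A 1 and 3 (adjusted p = 0.0012). Limma-voom gave -0.45 ± 0.11 (SE; adjusted p = 0.044). The 4 libraries below WT are those with the high cerebellum list. With that list as a covariate, without D50A 3, the genotype term was 0.08 ± 0.09 (SE; edgeR, adjusted p = 0.65). Here too the term rests mainly on D50A 1, where Camk2a lay inside the WT range, so genotype and tissue content cannot be told apart by it.

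Camk2b, the beta subunit that binds actin, had 897, 763, 409, 707 and 725 CPM in D50A 1 to 5 and 828, 756 and 759.6 CPM in WT. Its log2 fold change without D50A 3 was -0.00 ± 0.08 (SE; edgeR, adjusted p = 0.99). Camk2d and Camk2g, the more widely expressed delta and gamma subunits, had log2 fold changes of -0.07 each without D50A 3, with SEs of 0.09 and 0.06. Camk2a made up 62.1% to 64.7% of the summed CaMKII level per kilobase in WT. In D50A 1 to 5 it made up 62.7%, 58.9%, 26.0%, 57.7% and 55.8%, so D50A 1 lay inside the WT range and the rest lay below it.

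**Figure D4:**
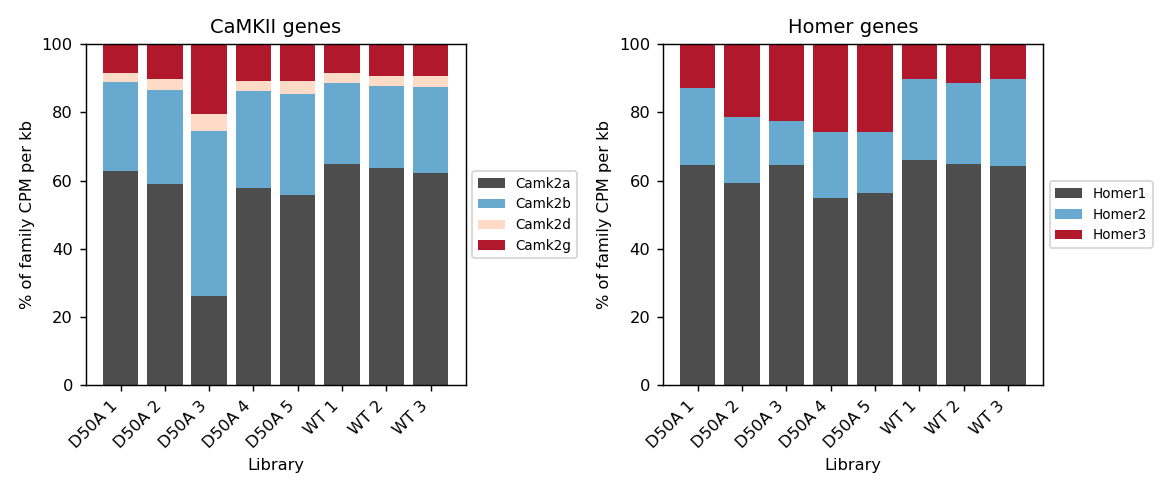
Share (percent, vertical axis) of each member in the summed CPM per kilobase of its family, for the Homer and CaMKII genes, in each library (horizontal axis). Homer3's share is 10.1% to 11.4% in WT and 13.0% to 25.9% in D50A, and Camk2a's is 62.1% to 64.7% in WT and 26.0% in D50A 3.

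The neurexins and neuroligins, the best known pair of partners across the cleft, showed no call in any comparison without a covariate. Nlgn1 (chr3:25426215-26332460, minus strand), which is concentrated at excitatory synapses, had 41.5, 54.2, 89.5, 61.4 and 56.9 CPM in D50A 1 to 5 and 57.2, 63.3 and 69.0 CPM in WT. D50A 1 was the lowest library and D50A 3 the highest, so its log2 fold change went from -0.06 (SE 0.24) with all 8 libraries to -0.23 (SE 0.13) without D50A 3. Nlgn3 (chrX:101299168-101325963, plus strand), found at excitatory and inhibitory synapses, ran the other way, with 60.7, 50.3, 15.2, 47.0 and 46.8 CPM against 48.7, 51.8 and 48.6 CPM. In the annotation 41.2% of its exon bases are shared with exons of other genes, so its count is uncertain. Nrxn2 had 430.1, 371, 76.2, 326 and 326 CPM against 393, 363 and 339 CPM in WT, and Nrxn3 had 218, 229.5, 156, 197 and 223 CPM against 259, 218 and 238 CPM. Gene counts do not separate the alpha and beta forms or splice variants of neurexins.

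The LRRTM genes encode leucine-rich repeat proteins of the postsynaptic membrane that bind neurexins or heparan sulfate proteoglycans. Lrrtm4 (chr6:80018877-80810143, plus strand) had 10.6, 11.5, 12.9, 10.9 and 12.2 CPM in D50A 1 to 5 and 14.3, 14.0 and 12.7 CPM in WT. Only D50A 3 reached into the WT range. Its log2 fold change without D50A 3 was -0.27 ± 0.09 (SE; edgeR, adjusted p = 0.36), and 25.1% of its exon bases are shared with exons of other genes. Lrrtm2 (chr18:35209003-35215024, minus strand) had 65.2, 88.8, 222, 100.1 and 101 CPM against 79.1, 96.3 and 106 CPM. In D50A 3 it stood 2.37-fold above the WT mean, next after Homer3 among the members, and it was below WT in D50A 1. Lrrtm3 was likewise highest in D50A 3 (64.9 CPM against 35.9 to 42.3 CPM in WT), while Lrrtm1 was lowest there (35.2 CPM against 58.4 to 61.7 CPM). Without D50A 3, the log2 fold changes of Lrrtm1 to Lrrtm3 were -0.13, -0.07 and 0.11, with SEs of 0.09, 0.15 and 0.11.

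Cadm1, Cadm2 and Cadm3 encode SynCAM proteins, immunoglobulin-type adhesion molecules that organise synapses. Cadm2 (chr16:66655421-67620908, minus strand) had 184, 251, 286, 242 and 252 CPM in D50A 1 to 5 and 269, 271 and 287 CPM in WT, so all but D50A 3 were below WT. Cadm1 had 162, 184, 252, 186 and 201 CPM against 200.2, 204 and 226 CPM, with D50A 3 the highest of all. Without D50A 3 the log2 fold changes were -0.18 ± 0.08 (SE) for Cadm1 (edgeR, adjusted p = 0.53) and -0.23 ± 0.11 (SE) for Cadm2 (adjusted p = 0.54). Cadm3 had 413 ± 18.0 CPM (SD, n = 4) without D50A 3 and 399 ± 19.9 CPM (SD, n = 3) in WT. That is a log2 difference of 0.06 ± 0.06 (SE). In D50A 3 it had 143 CPM.

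The LAR-type phosphatases Ptprd, Ptprs and Ptprf are presynaptic organisers that bind several postsynaptic adhesion proteins. Ptprf (chr4:118208213-118291405, minus strand), which encodes LAR itself, had 125, 106, 18.7, 90.2 and 89.2 CPM in D50A 1 to 5 and 124, 108 and 118 CPM in WT. D50A 1 was just above the WT range and the other 4 were below it. The log2 fold change of this gene was -0.17 ± 0.11 (SE) without D50A 3 (edgeR, adjusted p = 0.68) and -0.28 ± 0.07 (SE) without D50A 1 and 3 (adjusted p = 0.035). Ptprs had 587, 478, 47.1, 410.4 and 416 CPM against 560.3, 505 and 469.9 CPM and was not called. Ptprd had 283, 350.5, 201, 351 and 353 CPM against 345, 356 and 356 CPM, so D50A 2, 4 and 5 lay at the WT level while D50A 1 and 3 lay below.

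The members' differences from WT were also set against the base composition and length of their transcripts. Over the 31 members, the log2 difference from the WT mean had a Spearman rho with GC content of the longest transcript of 0.81 in D50A 1 and -0.72 in D50A 3. It was 0.03, -0.43 and -0.55 in D50A 2, 4 and 5. The same rho over 12438 genes was 0.66, -0.29, -0.03, -0.20 and -0.39 in D50A 1, 3, 2, 4 and 5. WT libraries also differed among themselves in this measure: compared with the average of the remaining WT libraries, WT 1 to 3 had a rho of 0.64, -0.11 and -0.64 over the members and of 0.36, 0.11 and -0.45 over all those genes. With length of the longest transcript, the rho in D50A 3 was -0.56 over all those genes and -0.18 over the members. Over all those genes it ran from -0.31 to 0.10 in the other libraries. In D50A 3 the trend over all those genes was thus stronger with length than with GC. Genes share a library and are not independent replicates, so these values describe the libraries. The 16 members with at least 50.9% GC had a median log2 difference of 0.09 in D50A 1 and -2.51 in D50A 3. The 15 members with at most 49.3% GC had -0.32 and -0.09. Shank1, at 61.4% GC, was above WT in D50A 1 and the lowest member in D50A 3. Lrrtm2, at 38.4% GC, was below WT in D50A 1 and above WT in D50A 3, next after Homer3. Homer3, at 60.2% GC, was the one GC-rich member above WT in D50A 3.

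**Figure D5:**
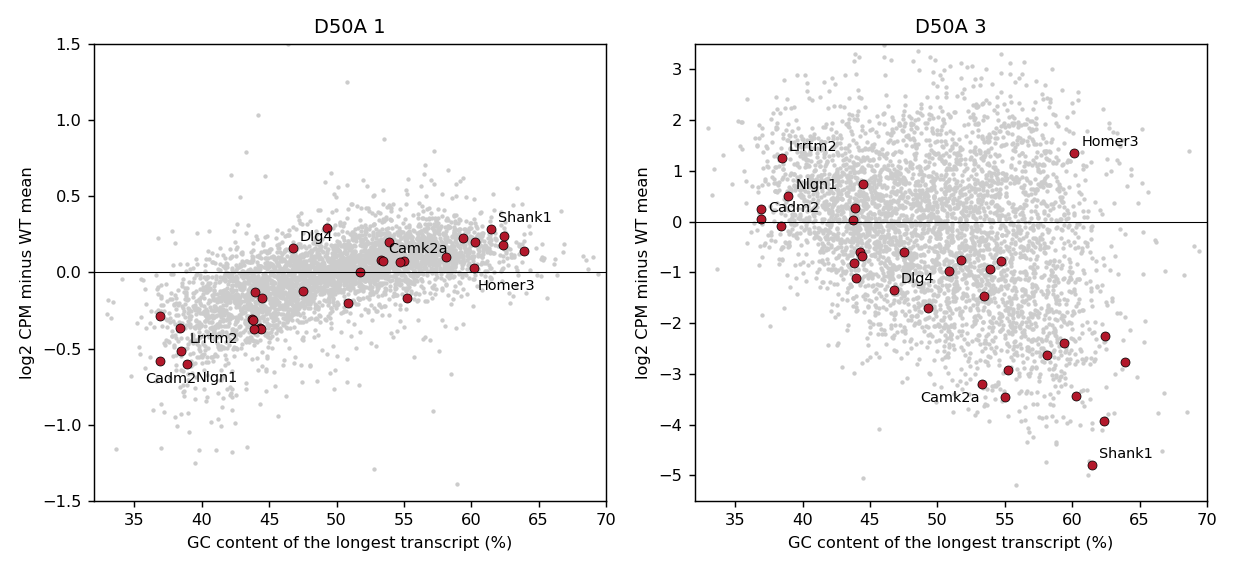
Log2 difference from the WT mean (vertical axis) against GC content of the longest transcript (percent, horizontal axis) in D50A 1 and D50A 3. Red points are the 31 members, and grey points are a sample of the 12438 genes in the trends, some members among them. Members climb with GC in D50A 1 and descend with GC in D50A 3, where Homer3 stands above the other GC-rich members.

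By range, D50A 1 was below all WT libraries for 13 members and above all for 12, where 32.4% and 31.8% of all genes were. D50A 3 was below all WT libraries for 22 members and above for 6 (Homer1, Homer3, Nlgn1, Lrrtm2, Lrrtm3 and Cadm1), where 49% and 43.4% of all genes were. When offsets that remove each library's trend with transcript GC and length were added to the 8-library fit, edgeR called 0 members (smallest adjusted p = 0.83). The members' median log2 fold change became -0.02, with 13 positive and 18 negative. Over all genes tested the median was 0.02 in that fit, against -0.01 without the offsets. Dlg2 and Homer2 had log2 fold changes of 0.03 and 0.12 there, with SEs of 0.16 and 0.25, against -0.27 and -0.33 without the offsets. Homer3 had 1.31 ± 0.39 (SE). Without D50A 3 the same kind of offsets changed the sign of Camk2b and Ptprd only among the members, so Dlg2, Dlgap1 and Homer2 stayed negative.

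With the cerebellum list as a covariate and without D50A 3, edgeR called 1 member higher and 9 lower: Nlgn3 higher, and Dlg1, Dlg2, Homer1, Homer2, Nlgn1, Lrrtm2, Cadm1, Cadm2 and Ptprd lower. Of all genes, 1.26% were called higher and 6.97% lower. The strongest was Cadm2, with a log2 fold change of -0.57 ± 0.08 (SE; adjusted p = 0.00013). D50A 1 is the sole mutant library with a WT-like level of the covariate, so the genotype term rests mainly on it, and all 9 genes called lower have at most 44.4% GC and are below all WT libraries in D50A 1. With D50A 3 in the fit the covariate gave 0 calls among the members, where edgeR's smallest adjusted p was 0.999992. The smallest was the same among the further postsynaptic density and synaptic adhesion genes described below, so the 0 is not particular to the members.

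Further genes of the same structures were counted from lists. Of 36 further genes of the postsynaptic density, 35 were in the table and tested, and 0 were called with all 8 libraries or without D50A 3. Their median log2 fold changes were -0.34 and -0.11, against -0.01 and -0.00 over all genes. Without D50A 1 and 3, edgeR called 1 higher, Lin7a (log2 fold change 0.29, SE 0.06, adjusted p = 0.0097), and 12 lower, beside 3.36% of all genes higher and 3.06% lower. Lzts1, a density protein, was at -0.40 ± 0.06 (SE; adjusted p = 0.00089), Kalrn at -0.30 ± 0.06 (SE; adjusted p = 0.0097), and Cnksr2, a scaffold that binds PSD-95, at -0.26 ± 0.06 (SE; adjusted p = 0.019). Cnksr2 had 183, 223, 87.7, 198 and 198 CPM in D50A 1 to 5 and 258, 237 and 256 CPM in WT, with no overlap. Akap5, the kinase anchor, was called as well at -0.28 ± 0.08 (SE; adjusted p = 0.048). Magi3 and Tnik, at -0.15 and -0.20, were not.

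Of 48 further synaptic adhesion genes, 43 were in the table and tested, and again 0 were called with all 8 libraries or without D50A 3. Median log2 fold changes were -0.25 and -0.11, beside the same -0.01 and -0.00. Without D50A 1 and 3, edgeR called Ppfia4, a liprin-alpha gene, higher at 0.36 ± 0.06 (SE; adjusted p = 0.0023), and 3 lower: Clstn2, a calsyntenin gene, at -0.23 ± 0.06 (SE; adjusted p = 0.042), Lphn1, a latrophilin gene, at -0.30 ± 0.07 (SE; adjusted p = 0.021), and Lrfn2, a SALM gene, at -0.34 ± 0.09 (SE; adjusted p = 0.027). The same 3.36% and 3.06% of all genes are the background. Lphn1, Lrfn2 and Lin7a lie outside the rule for named genes and were named after their values were seen. Ppfia4 had 127, 148, 44.6, 160.4 and 147 CPM in D50A 1 to 5 and 125, 119.9 and 114 CPM in WT, above WT in all mutant libraries but D50A 3. Slitrk3 had 50.0, 55.5, 32.5, 55.9 and 52.8 CPM against 64.0, 61.5 and 63.7 CPM, below WT in all 5, with a log2 fold change of -0.23 ± 0.07 (SE) without D50A 3 (edgeR, adjusted p = 0.29). Flrt2, Lrfn5, Cntnap2 and Slitrk5 had -0.20, -0.17, -0.17 and -0.15 there, with SEs of 0.10, 0.07, 0.09 and 0.06, and none was called.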

How the data were processed

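Poly(A)-selected RNA of 5 D50A and 3 WT total brains was sequenced. The authors deposited 1 table of raw counts, a row per gene and a column per library. Per the submitters' processing notes CASAVA 1.8, STAR 2.5 and HTSeq 0.6.1 were used with mm10, and no source used here gives the annotation release or strand setting. Samples were grouped by the genotype label. Counts on the whole table were tested with edgeR 4.0.16 (R 4.3.3; filterByExpr, TMM, quasi-likelihood test, Benjamini-Hochberg threshold 0.05), with all 8 libraries and without D50A 3, and the members were read from it. P-values rest on the spread between these libraries only. The SE given for an edgeR estimate was derived: the size of the log2 fold change divided by the square root of the test's F statistic. CPM use TMM-scaled library sizes, and log2 differences from the WT mean add a prior count of 2. Transcript GC, length, exon overlaps and positions came from GENCODE M21, and 25484 identifiers matched. GC and length trends kept 12438 genes whose mean log2 CPM exceeded 2, and offsets were lowess curves with a span of 0.3. Alternatives were DESeq2 1.42.0, limma-voom with sample quality weights (limma 3.58.1), relative log expression scaling, other filters, those offsets, the mean log2 level of the cerebellum list as a covariate, and left-out libraries. The edgeR fit was tested on simulated counts with known changes. Those counts held no GC, length or tissue-content difference between libraries, so that test does not cover such differences. Depth was 13675945 to 24802272 counts per library. All members are named; from each further list the 4 genes with the smallest unadjusted p in each comparison are named, and Cstf2. The members and lists were chosen with earlier results of these data known.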

Additional observations from a re-analysis of the deposited data

Results flagged for a closer look

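In 46 genes (the members, the genes named from the further lists, Cstf2 and Ddx49) the CPM of the highest and lowest library was checked against the gap to its neighbour within the 5 D50A libraries and within the 4 without D50A 3. Of 92 such groups, 16 had a library further from the rest than the 95% limit of Dixon's test, where chance gives about 5%. D50A 3 accounted for 12 of the 16, all among 5 libraries. Of these, Dlgap1 (242 CPM), Dlgap2 (8.42 CPM), Shank2 (19.4 CPM), Camk2g (157 CPM) and Cadm3 (143 CPM) are members where it was low, and Lrrtm2 (222 CPM) is the member where it was high. The other 6 are low values of Tnik (58.7 CPM), Kalrn (113 CPM), Slitrk3 (32.5 CPM), Ppfia4 (44.6 CPM), Clstn2 (17.9 CPM) and Slitrk5 (36.4 CPM). D50A 1 was low for Dlg1 among 5 libraries (139 CPM) and, among the 4, for Cadm2 (184 CPM) and Ptprd (283 CPM). D50A 4 was low for Cadm3 among the 4 (386 CPM). The genes share libraries, so these values are not independent of each other.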

How the results depend on the processing

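With all 8 libraries and without D50A 3, edgeR called 0 members, and DESeq2, relative log expression scaling, both other filters and the GC and length offsets gave 0 as well, as did the cerebellum covariate with all 8 libraries. With all 8 libraries, limma-voom called 3 members and the comparison without D50A 1 and D50A 3 called 8. Leaving out single libraries gave 0 to 1 calls, the 1 being Homer3 without D50A 1. With D50A 3 already left out, limma-voom called 3, the cerebellum covariate called 10 and moved the median log2 fold change of the members to 0.00086, and leaving out D50A 1 as well gave 8, with 0 to 8 over single libraries. Among single libraries, D50A 1 is the one whose removal changes these counts. The cause was not tested.

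Log2 fold changes that took the other sign with all 8 libraries were Homer1 0.0059 under DESeq2 and 0.0069 under relative log expression scaling. Under limma-voom they were Cadm3 0.037 and Ddx49 -0.0034. Under GC and length offsets they were Dlg1 0.18, Dlg2 0.028, Homer1 0.034, Homer2 0.12, Nrxn3 0.14, Nlgn1 0.44, Nlgn3 0.069, Cadm1 0.037, Cadm2 0.093, Ptprd 0.15 and Cntnap2 0.17. Under the covariate they were Dlg4 0.079, Dlgap3 0.019, Dlgap4 0.12, Shank1 0.14, Shank3 0.046, Camk2b 0.14, Nrxn2 0.13, Nlgn3 0.19, Lrrtm1 0.029, Lrrtm2 -0.39, Lrrtm3 -0.12, Ptprs 0.075 and Ppfia4 -0.014. Without D50A 1 and 3 they were Dlg1 0.020, Cadm3 0.055 and Ptprd 0.012. Leaving out single libraries gave Dlg1 -0.086 to 0.034, Homer1 -0.089 to 0.055, Nrxn2 -0.40 to 0.0024, Nlgn1 -0.23 to 0.076, Nlgn3 -0.30 to 0.054, Lrrtm2 -0.069 to 0.47, Cadm3 -0.22 to 0.059 and Ppfia4 -0.036 to 0.29.

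Without D50A 3, values of the other sign were, under limma-voom, Dlg1 0.0023, Nrxn2 -0.070, Nlgn3 -0.025 and Lrrtm2 0.035, and under the offsets Camk2b 0.00095 and Ptprd 0.026. Under the covariate they were Dlg4 0.16, Dlgap3 0.14, Dlgap4 0.23, Shank1 0.28, Shank2 0.078, Shank3 0.18, Camk2a 0.079, Camk2b 0.20, Camk2g 0.00086, Lrrtm1 0.070, Lrrtm3 -0.18, Ptprs 0.20 and Ptprf 0.11. With D50A 1 left out too they were Dlg1 0.020, Nrxn2 -0.084, Nlgn3 -0.035, Lrrtm2 0.060 and Ptprd 0.012. Single libraries gave Dlg1 -0.097 to 0.020, Camk2b -0.079 to 0.037, Nrxn2 -0.084 to 0.057, Nlgn3 -0.035 to 0.096, Lrrtm2 -0.18 to 0.060 and Ptprd -0.092 to 0.012. No paired analysis was possible because the library numbers tie no mutant to a WT animal. The fewest counts of a member in a library were 91 for Dlgap2, 139 for Lrrtm4 and 160 for Homer3.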

Other observations

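Levels per kilobase of longest transcript spread widely over the 31 genes in WT. Camk2a was highest at 493 ± 45.6 CPM per kilobase (SD, n = 3), followed by Camk2b at 189 ± 9.84 and Dlg4 at 108 ± 5.51. Lrrtm4 was lowest at 3.08 ± 0.19 and Homer3 next at 3.93 ± 0.38, and the median over all genes tested was 5.96. Nlgn3 and Nlgn1 were at 5.82 ± 0.22 and 5.35 ± 0.50. Among the LRRTM genes, Lrrtm2 made up 29.5% to 36.0% of the family's summed level in WT and 55.4% in D50A 3, where Lrrtm1 made up 16.9% against 38.9% to 44.2% in WT. Among the LAR-type phosphatases, Ptprd made up 26.2% to 30.0% in WT and 68.6% in D50A 3. Its own CPM was lower there (201 against 345 to 356 in WT). Ptprs and Ptprf lay further down in D50A 3, at 10.9-fold and 6.24-fold below the WT mean.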
